A study of Mus musculus with 12 samples.

Results

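Cd79a, Cd79b, Ms4a1, Pax5, Ebf1, Ly6d and Cd22 are 7 genes classically used to recognise B lymphocytes, and here they were measured in RNA of cells sorted from mouse hearts as macrophages (Mφ). The genes were picked by name out of 24445 gene symbols, with earlier results of the same libraries known, and the values used for the choice were their normalised counts in the 3 groups and their variation from library to library. Their differences between groups and their correlations are therefore given as a description, without a test. All 7 symbols were listed for every library, although Pax5 had a count of 0 in ECH 4, HF 1 and HF 2 (groups named below). All 7 passed the filter on low counts that 14608 genes passed. For Pax5 this rested on the control libraries, with 40 to 65 counts against at most 28 in any other library.

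The hearts came from adult male C57BL6/J mice, with 4 mice in each of 3 groups and 1 library per mouse. Control (Ct) mice carried an implanted pump with saline, and the length of the infusion was not given for each Ct mouse in the sources used here. Mice with early concentric hypertrophy (ECH) had a pump that delivered 30 mg/kg/day of isoproterenol, which activates β-adrenergic receptors, over 14 days, and mice with heart failure (HF) were given this dose over 28 days. Cells were enriched on CD45, the surface protein common to leukocytes, and live single CD11b+ cells positive for CD14 and CD64 were sorted by flow cytometry, so that no B-cell surface protein was part of the gate described.

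B cells arise in the bone marrow under a chain of transcription factors in which EBF1 and PAX5 set and hold the B-cell programme. Mature B cells carry an antigen receptor made of an immunoglobulin, which binds the antigen, and of the 2 partner chains CD79A and CD79B, which carry the signal into the cell. Further surface proteins tune that signal, among them CD22, an inhibitory lectin that binds sialic acid, and CD20, which is encoded by Ms4a1. B cells are among the leukocytes that reside in the mouse heart, where many of them lie in the small vessels, and CD14 and CD64 are surface proteins of monocytes and Mφ.

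The upstream sequences of 4 of the 7 genes were present in the RefSeq promoter table for GRCm38.p6, and those of Cd79a and Cd22 are shown because each held a match to the motif of a factor of early B cells, E2A or EBF1. Only the stretch of each window of 250 bases before the start site that no annotated exon of the gene covers is printed, from chr7:24897247-24897380 on the plus strand for Cd79a and from chr7:30879029-30879176 on the minus strand for Cd22. Capitals mark a match to the E2A motif CAGGTG in Cd79a and to the EBF1 motif CCCNNGGG in Cd22.
Cd79a: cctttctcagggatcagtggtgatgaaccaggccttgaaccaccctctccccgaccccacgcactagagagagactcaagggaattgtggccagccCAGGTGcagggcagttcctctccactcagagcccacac
Cd22: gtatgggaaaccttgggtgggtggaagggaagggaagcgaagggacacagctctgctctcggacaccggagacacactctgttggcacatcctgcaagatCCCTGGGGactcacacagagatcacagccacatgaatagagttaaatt
Both strands were searched for these motifs, for the octamer ATGCAAAT and for the ETS motif AGGAAG. The E2A match of Cd79a began at base -154 from the start site and the EBF1 match of Cd22 at base -48. In the parts not printed, Cd79a held an ETS match at base -55 and Cd22 an E2A match at base -245, and none of these matches overlapped another. The upstream windows of Pax5 and Ebf1 held no match to any of the 4 motifs. Of 32851 promoter windows of the same length, 11.8% held the EBF1 motif, 17.2% the E2A motif, 1.60% the octamer and 29.5% the ETS motif. A match is a description of these letters and not a site of binding.

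The libraries held between 88466559 and 111180291 counts on genes. Ct library 2 and HF library 1 had the fewest genes detected, 14489 and 13600, against 15054 to 15940 in the other libraries, and fold changes, correlations and list medians are also given without both. The library numbers in the labels fall into 2 runs of 6, the first holding Ct with ECH 1 and 2 and the second HF with ECH 3 and 4, and these runs are called library sets here, although no source calls them batches. The 10 genes that mark Mφ summed to between 29287 and 41450 CPM (the usual count unit relative to library size, here with TMM scaling) in every library, and Cd14 and Fcgr1, which encode the surface proteins of the gate, measured at least 1713 and 71.5 CPM. Itgam, which encodes CD11b, the remaining protein of the gate, measured 373 ± 144 in Ct, 709 ± 63.3 in ECH and 579 ± 126 in HF (CPM, mean ± SD, n = 4), and ran opposite to the mean standardised level of the 7 genes with r = -0.90 over the 12 libraries, at place 14568 of 14601 genes ranked. Its log2 fold changes of 0.92 ± 0.24 in ECH and 0.63 ± 0.24 in HF (SE) did not pass the adjusted edgeR test (adjusted p = 0.132 and 0.239), and its part in the levels of the 7 genes was not tested. The 7 B-cell genes together reached 41.3 to 465 CPM.

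**Figure D1:**
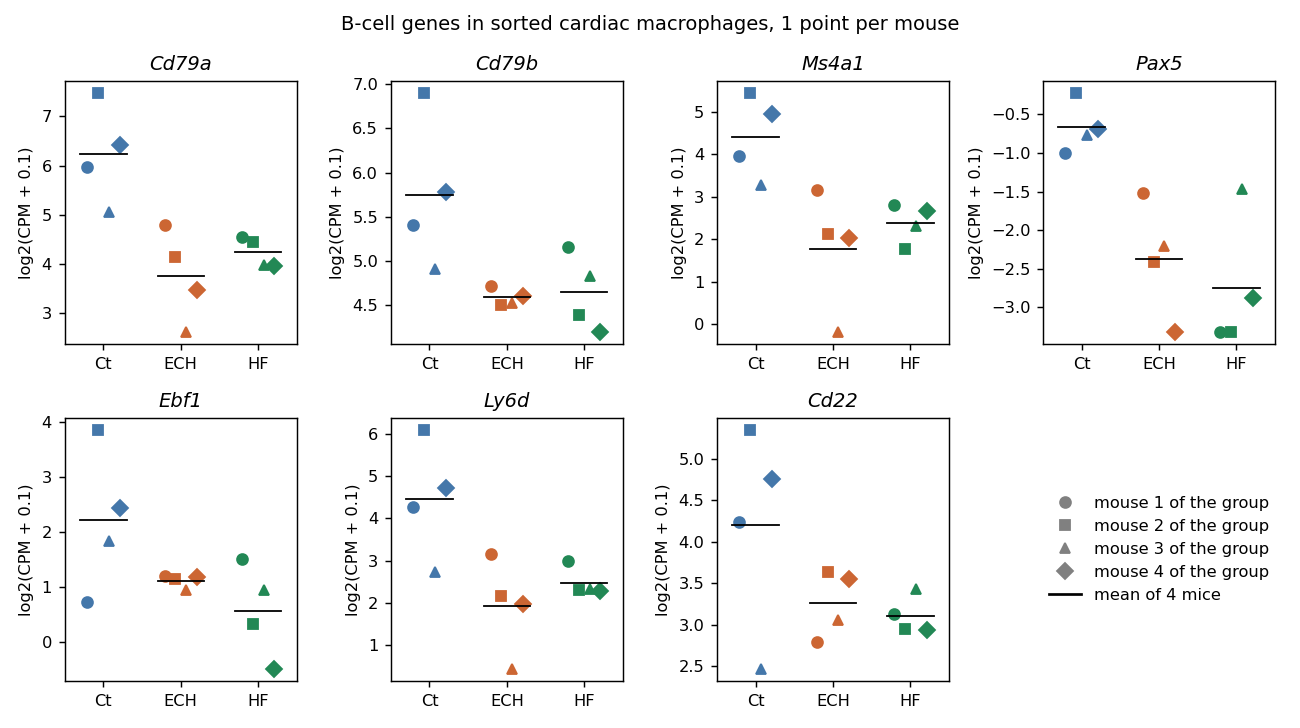
Level of each of the 7 B-cell genes on the scale log2(CPM + 0.1) in Ct, ECH and HF, with 1 point per mouse and a line at the mean of the 4 mice. Ct library 2 (square) is the highest point of every panel, and all 4 Ct points lie above all ECH points for Cd79a, Cd79b, Ms4a1 and Pax5.

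All 7 genes had a higher mean level in Ct than in ECH and HF Mφ. Mean Ct levels were between 2.35-fold (Cd22) and 6.65-fold (Ly6d) those of ECH, and between 2.38-fold (Cd79b) and 7.30-fold (Pax5) those of HF. Over all libraries, the fitted log2 differences of HF from ECH lay between -0.60 ± 1.53 for Pax5 and 0.31 ± 0.62 for Ly6d (SE). Within the library set that holds HF with ECH 3 and 4, HF means were between 0.796-fold (Ebf1) and 2.24-fold (Cd79a) those of ECH. In bulk RNA, fewer cells of a type and less RNA per cell cannot be told apart. The Ct mice varied widely, with a coefficient of variation between 28.2% for Pax5 and 91.8% for Ebf1 over the 4 mice. Without Ct 2 and HF 1 the fitted log2 fold changes of the 7 genes against Ct were nearer 0, between -0.74 for Ebf1 and -2.07 for Ms4a1 in ECH and between -0.92 for Cd79b and -2.24 for Pax5 in HF.

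Ebf1 (chr11:44617317-45008091, plus strand) encodes the factor that opens B-cell genes early in the lineage. It measured 1.57, 14.4, 3.49 and 5.33 CPM in Ct 1 to 4, 2.20, 2.13, 1.83 and 2.17 CPM in ECH 1 to 4, and 2.77, 1.15, 1.83 and 0.617 CPM in HF 1 to 4. Ct 2 stood far above the other Ct mice, Ct 1 lay below every ECH mouse, and the 4 ECH values were nearly equal. The fitted log2 fold change was -1.57 ± 0.64 (SE, n = 4 per group) for ECH against Ct and -1.96 ± 0.65 for HF against Ct, and it was between -0.73 and -1.89 for ECH when each library was left out in turn, the value nearest 0 being the one without Ct 2.

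Pax5 (chr4:44524757-44710487, minus strand) encodes the factor that keeps B cells committed to their lineage, and it was the lowest of the 7 genes. It had 40, 65, 48 and 54 counts in Ct 1 to 4, which is 0.400 to 0.756 CPM. The ECH libraries held 25, 9, 13 and 0 counts and the HF libraries 0, 0, 28 and 4 counts. A count of 0 allows up to 3 counts, or 0.0259 CPM in ECH 4, 0.0287 CPM in HF 1 and 0.0277 CPM in HF 2, and these limits cover counting error only. Every Ct mouse was above every ECH and HF mouse, while the fitted log2 fold changes of -2.25 ± 1.58 for ECH and -2.85 ± 1.62 for HF against Ct (SE, n = 4 per group) had the widest errors of the 7 genes. Without HF 3 the value for HF against Ct was -5.36, the remaining HF libraries holding 0, 0 and 4 counts.

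Cd79a (chr7:24897381-24902197, plus strand) encodes the first signalling chain of the B-cell receptor and had the highest mean level in Ct of the 7 genes. It measured 62.9, 178, 33.03 and 85.7 CPM in Ct 1 to 4, 27.7, 17.7, 6.04 and 11.0 CPM in ECH 1 to 4, and 23.5, 21.8, 15.6 and 15.5 CPM in HF 1 to 4. All Ct values were above all ECH and HF values, and the 4 HF values lay within the range of ECH. The mean levels were 89.8 ± 62.4 in Ct, 15.6 ± 9.38 in ECH and 19.1 ± 4.16 in HF (CPM, mean ± SD, n = 4), and the fitted log2 fold change was -2.52 ± 0.51 for ECH and -2.23 ± 0.50 for HF against Ct (SE).

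Cd79b (chr11:106311341-106314762, minus strand) encodes the partner chain. Ct 1 to 4 had 42.4, 119, 29.9 and 54.7 CPM, ECH 1 to 4 had 26.3, 22.6, 22.99 and 24.3 CPM, and HF 1 to 4 had 35.6, 20.95, 28.5 and 18.2 CPM. The ECH values differed by little and stayed below all Ct values, whereas HF 1 lay above Ct 3. The log2 fold changes of -1.36 ± 0.35 for ECH and -1.25 ± 0.35 for HF against Ct (SE, n = 4 per group) were nearer 0 than those of Cd79a, although both chains belong to the same receptor, and this difference between genes was not tested. Per kilobase of the longest transcript, Cd79a measured 61.7 ± 42.8 and Cd79b 43.0 ± 27.8 CPM per kb in Ct, but in ECH the order of the means was turned, with 10.7 ± 6.43 for Cd79a and 16.8 ± 1.17 for Cd79b (SD, n = 4).

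Ms4a1 (chr19:11249675-11266241, minus strand), which encodes CD20, measured 15.4, 43.3, 9.58 and 30.6 CPM in Ct 1 to 4, 8.78, 4.25, 0.781 and 4.01 CPM in ECH 1 to 4, and 6.91, 3.30, 4.84 and 6.25 CPM in HF 1 to 4. All Ct mice were above all ECH and HF mice, by a small margin for Ct 3 and ECH 1, and ECH 3 was the lowest of the 12. The log2 fold change was -2.47 ± 0.62 for ECH and -2.22 ± 0.61 for HF against Ct (SE, n = 4 per group).

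Ly6d (chr15:74762056-74763620, minus strand) encodes a small membrane-anchored protein that marks the step at which lymphoid progenitors turn to the B lineage. Its values were 19.3, 68.7, 6.51 and 26.3 CPM in Ct 1 to 4, 8.76, 4.34, 1.25 and 3.81 CPM in ECH 1 to 4, and 7.88, 4.82, 4.95 and 4.79 CPM in HF 1 to 4. Ct 3 lay below ECH 1 and HF 1, so the groups overlapped even though Ly6d had the largest ratio of means between Ct and ECH. The log2 fold change was -2.73 ± 0.66 for ECH and -2.43 ± 0.65 for HF against Ct (SE, n = 4 per group).

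Cd22 (chr7:30865402-30880342, minus strand) encodes the inhibitory co-receptor. It measured 18.8, 40.8, 5.44 and 26.9 CPM in Ct 1 to 4, 6.81, 12.4, 8.27 and 11.6 CPM in ECH 1 to 4, and 8.65, 7.61, 10.7 and 7.55 CPM in HF 1 to 4. Ct 3 was the lowest of all 12 libraries for this gene, while the other 3 Ct mice were above every ECH and HF mouse. The log2 fold change was -1.23 ± 0.45 for ECH, the smallest of the 7, and -1.41 ± 0.45 for HF against Ct (SE, n = 4 per group).

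In ECH, 4 of the 7 genes (Cd79a, Cd79b, Ms4a1 and Pax5) had all values below all Ct values, where 3.64% of all genes tested did, and in HF 3 of the 7 (Cd79a, Ms4a1 and Pax5) did, where 4.45% of all genes tested did. Both comparisons use the same Ct mice, and the genes were chosen on these values, so nothing is read from these counts. Ct 2 was the highest Ct library for 7 of 7 genes and Ct 3 the lowest for 5 of 7. Among ECH mice, ECH 1 was the highest for 6 of 7 genes and ECH 3 the lowest for 4 of 7. Summed over the 7 genes, the level in Ct ran from 88.5 to 465 CPM with a median of 195 CPM, in ECH from 41.3 to 80.8 CPM with a median of 60.2 CPM, and in HF from 53.0 to 85.3 CPM with a median of 63.1 CPM, so the lowest Ct mouse was close to the highest HF mouse.

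Within the library set that holds Ct with ECH 1 and 2, mean Ct levels were 2.40-fold (Cd22) to 4.61-fold (Ly6d) those of ECH. Within the set that holds HF with ECH 3 and 4, the HF means of Cd79a, Ms4a1 and Ly6d were 2.24-, 2.22- and 2.22-fold those of ECH, and the ratios of Cd79b, Pax5, Ebf1 and Cd22 were 1.09, 1.27, 0.796 and 0.867. No Ct mouse shares a library set with an HF mouse, so for these groups the set and the condition cannot be told apart. A fit with the set as a covariate links Ct and HF only through the ECH mice of each set. The fitted log2 fold changes of the 7 genes stayed below 0 in 140 of 140 values from 20 alternative settings for ECH against Ct, and in 133 of 133 values from 19 settings for HF against Ct. These settings refit the same libraries or a part of them, and the genes were chosen on these values, so nothing is read from these counts. The size of the fold changes depended on the library set. With the set as a covariate, the log2 fold change of HF against Ct was -0.82 ± 0.72 for Cd79a, -0.77 ± 0.94 for Ms4a1, -1.06 ± 1.01 for Ly6d and -1.34 ± 2.77 for Pax5 (SE), nearer 0 than over all libraries, and between -1.20 and -1.85 for Cd79b, Cd22 and Ebf1.

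The 7 genes did not all vary alike across the 12 mice. Cd79a, Ms4a1 and Ly6d followed each other closely, with Pearson's r on the log2(CPM + 0.1) scale between 0.951 and 0.982 and Spearman's rho between 0.902 and 0.944. This trio was singled out by its r in these same libraries, so its further values below are a description and not a check. Over all 21 pairs r ran from 0.535 (Pax5 with Cd22) to 0.982 (Cd79a with Ly6d), with a median of 0.719, and rho from 0.308 (Ebf1 with Cd22) to 0.944. These points share the library, its depth and the difference between groups. After each value was set relative to its group mean, r within the trio was between 0.870 and 0.969, whereas the median over 21 pairs was 0.553. Without Ct 2 and Ct 4, the libraries of highest summed level, r was between 0.901 and 0.953 within the trio and between -0.10 and 0.68 in the other 18 pairs, and the median over 21 pairs was 0.413. Leaving out the highest libraries narrows the range of the levels, which by itself lowers r. Without Ct 2 and HF 1, r was between 0.936 and 0.972 within the trio and between 0.313 and 0.808 in the other 18 pairs, with a median of 0.644 over 21 pairs. Within the 6 libraries of Ct with ECH 1 and 2 the trio had r from 0.965 to 0.987 and the 21 pairs a median of 0.846, and within the 6 libraries of HF with ECH 3 and 4 these values were 0.823 to 0.953 and 0.137.

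**Figure D2:**
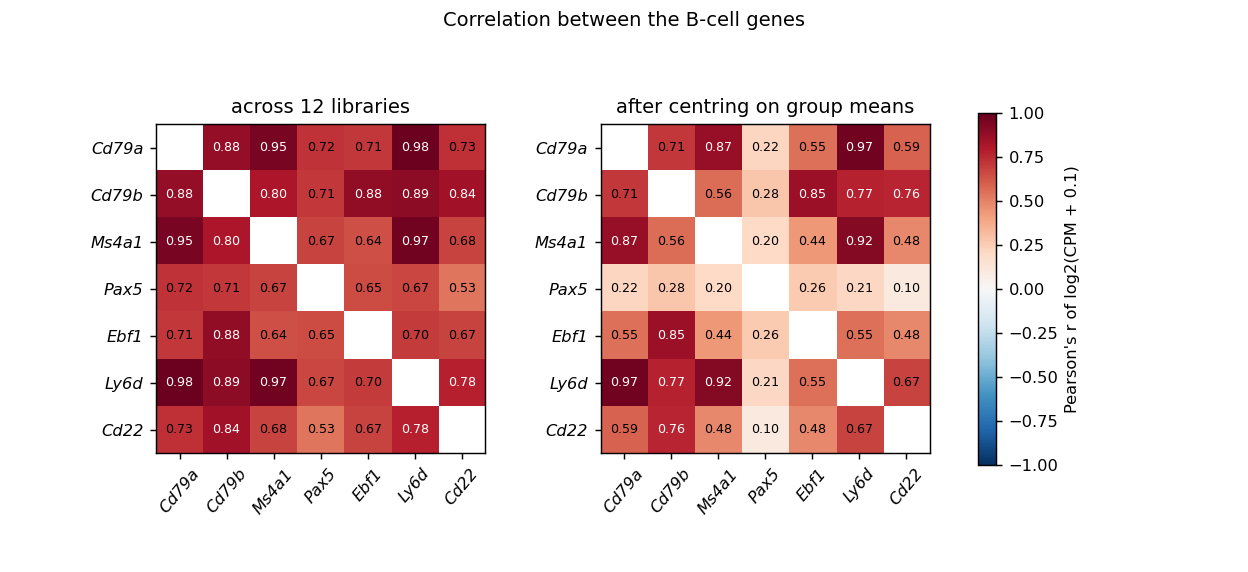
Pearson's r between the 7 B-cell genes over 12 libraries on the scale log2(CPM + 0.1), left as measured and right after subtracting each group's mean. Cd79a, Ms4a1 and Ly6d keep r of at least 0.870 with each other in both panels, and Pax5 has r of at most 0.28 with every other gene in the right panel.

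The ratios of Cd79b and Cd22 to Cd79a varied more between libraries than those of Ms4a1 and Ly6d. On the linear scale Ms4a1 was 12.9% to 40.4% of Cd79a in each library and Ly6d 19.7% to 38.7%, but Cd79b ran from 63.8% of Cd79a in Ct 4 to 381% in ECH 3, and Cd22 from 16.5% in Ct 3 to 137% in ECH 3. A least-squares line on Cd79a met the axis at 13.9 CPM for Cd79b and 5.37 CPM for Cd22, which is 37.4% and 38.9% of their mean over all libraries. For Ms4a1 this intercept was 0.893 CPM, or 7.77% of the mean, for Ebf1 it was 10.2% of the mean, for Pax5 25.6%, and for Ly6d -2.49 CPM, or -18.5% of the mean. The lines had r squared of 0.959 for Cd79b, 0.898 for Cd22, 0.950 for Ms4a1 and 0.985 for Ly6d. Ct 2, at 178 CPM of Cd79a, lay far from the other libraries, and no errors were computed for the intercepts. Percentages compare counts and not molecules, since the genes differ in length.

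**Figure D3:**
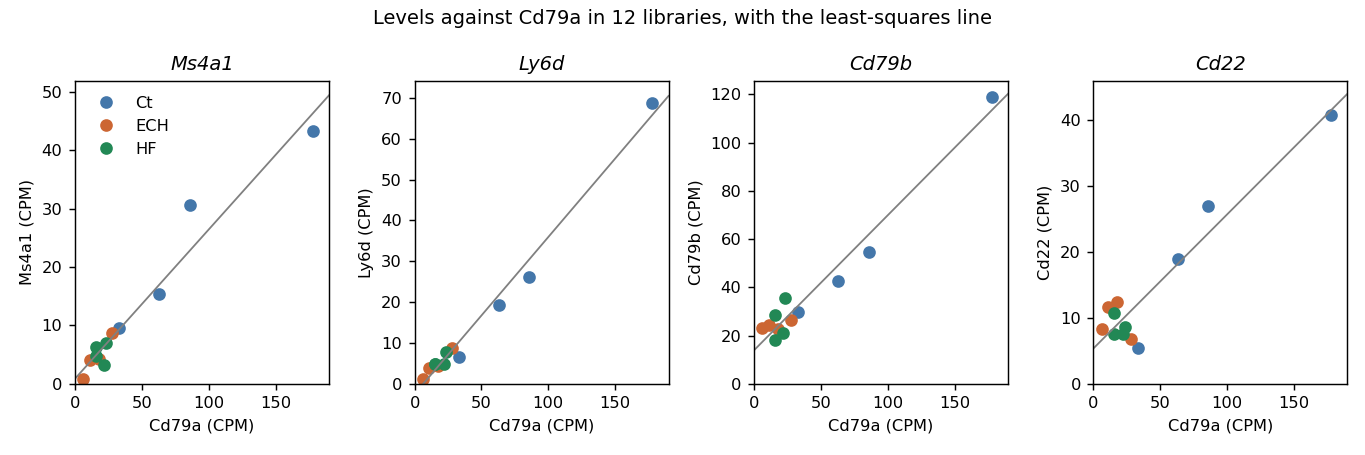
CPM of Ms4a1, Ly6d, Cd79b and Cd22 against CPM of Cd79a in the 12 libraries (blue Ct, orange ECH, green HF), with the least-squares line of each panel. The lines of Cd79b and Cd22 meet the vertical axis at 13.9 and 5.37 CPM, and those of Ms4a1 and Ly6d at 0.893 and -2.49 CPM.

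Among the other genes tested, those whose pattern over the 12 mice was most like the mean standardised level of the 7 were Gimap1 (r = 0.972), Ptprcap (0.962), Ltb (0.953), Grap (0.953), Ets1 (0.947), Zfp703 (0.943), Mycbp2 (0.939), Tnfrsf17 (0.939), Fcmr (0.938) and Mzb1 (0.938), of 14601 genes ranked. Gimap1, a GTPase of lymphocytes, averaged 15.7 CPM over the Ct mice, 4.59 CPM over the ECH mice and 4.19 CPM over the HF mice. Ltb, the lymphotoxin β chain, averaged 14.6, 3.37 and 4.99 CPM in the same order. Tnfrsf17, which encodes the survival receptor BCMA of plasma cells, averaged 13.6, 3.46 and 4.55 CPM. Without Ct 2 and Ct 4 the correlations of these 10 genes lay between 0.792 for Mycbp2 and 0.902 for Zfp703, and without Ct 2 and HF 1 between 0.871 for Zfp703 and 0.974 for Tnfrsf17.

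A list of 23 other B-cell genes held 18 that were in the files, and the immunoglobulin constant genes Ighm, Ighd, Igkc, Iglc2 and Iglc3 were not analysed here. All 18 were tested with edgeR's quasi-likelihood test, with the Benjamini-Hochberg adjustment made over all genes that passed the filter. A call required an FDR below 0.05 and a fold of 2 or more. In ECH against Ct, 1 of the 18 was called, as lower, where 0.356% of all genes tested were called and 0.089% were called as lower. In HF against Ct the count was again 1 of 18, as lower, where 0.377% of all genes were called and 0.11% as lower. In HF against ECH none of the 18 was called, and none had an unadjusted p under 0.05 in edgeR or a call in DESeq2, where 0% of all genes (1165 with an unadjusted p under 0.05) were called by edgeR and 47 genes by DESeq2.

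The called gene was Fcmr, the Fc receptor for IgM, in both comparisons, which share the Ct mice. It measured 29.1, 60.01, 21.9 and 31.4 CPM in Ct 1 to 4, 9.76, 7.51, 4.78 and 6.42 in ECH 1 to 4, and 13.3, 5.30, 5.50 and 6.09 in HF 1 to 4. Every Ct mouse was above every ECH and HF mouse. On the log2 scale Fcmr fell by 2.32 ± 0.39 (SE, edgeR adjusted p = 0.0202) in ECH and by 2.24 ± 0.39 (adjusted p = 0.0284) in HF.

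The calls depended on single libraries. For ECH against Ct, Fcmr was not called without Ct 1, Ct 4, ECH 3 or ECH 4, and its edgeR adjusted p ran from 0.0141 to 0.0989 over the 12 fits that each left out a library. For HF against Ct it was not called without Ct 1, Ct 4, HF 2, HF 3 or HF 4, with edgeR adjusted p from 0.0157 to 0.106. Its log2 fold change stayed below 0 in all of these fits, at most -1.95 in ECH and -1.86 in HF. Fcmr was called in neither comparison once the library set was a covariate (edgeR adjusted p = 0.223 in ECH and 0.24 in HF), nor with only the groups compared in the fit (0.0638 and 0.0543), nor within the set of Ct with ECH 1 and 2 (0.517). It was called in each comparison without both Ct 2 and HF 1, and with DESeq2. DESeq2 called 8 and 6 of the 18 genes, where it called 248 and 336 of all 14608 genes tested.

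**Figure D4:**
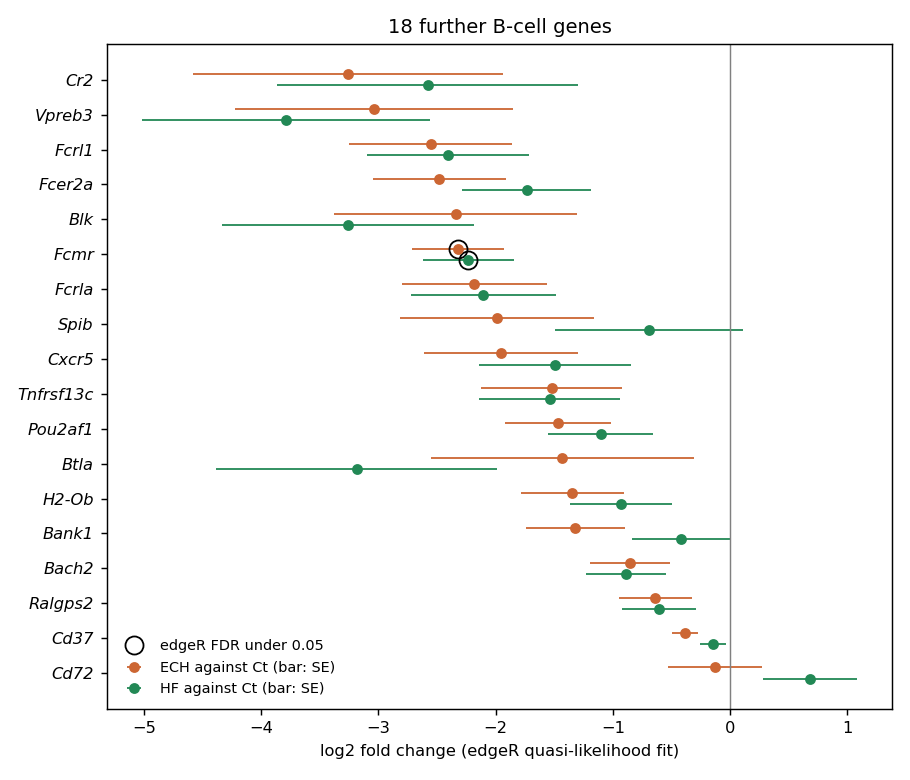
Fitted log2 fold change of 18 B-cell genes outside the 7, ECH against Ct (orange) and HF against Ct (green), with bars for the standard error of the edgeR fit (n = 4 mice per group) and rings for an FDR under 0.05. All 18 ECH values and 17 of 18 HF values are below 0, Cd72 being the exception in HF.

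Over the 18 genes, the log2 fold change was below 0 for 18 in ECH and for 17 in HF, with medians of -1.74 and -1.52 against medians of 0.01 and -0.01 over all genes tested. An unadjusted p under 0.05 in the direction of lower was found for 15 and 11 of them, where 5.89% and 8.72% of all genes tested had one. Without Ct 2 and HF 1 the medians were -1.40 in both comparisons, with 18 and 17 values below 0. In 9 of 18 genes all ECH values were below all Ct values, and in 6 of 18 all HF values were, against the 3.64% and 4.45% of all genes given above. Ct 2 was the highest Ct library for 15 of the 18 and Ct 3 the lowest for 12, the same libraries as for the 7 genes.

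The size of the difference varied widely among the 18 genes. Fcer2a, the low-affinity IgE receptor (log2 fold change -2.48 ± 0.57 in ECH and -1.74 ± 0.55 in HF, SE), and Cr2, a complement receptor (-3.26 ± 1.32 and -2.58 ± 1.28), had large fitted values and did not pass the adjusted edgeR test, and Cr2 was named after its values were seen. DESeq2 called Fcer2a in both comparisons (adjusted p = 0.000427 in ECH and 0.03 in HF), and edgeR called it in ECH against Ct without Ct 3 (log2 fold change -2.72, edgeR adjusted p = 0.0494) or without ECH 2 (-2.96, adjusted p = 0.0486). Fcer2a was also among the 8 genes with the highest mean level. Of these, Cd37, a tetraspanin of leukocytes, had 187 ± 11.3 in Ct, 144 ± 16.3 in ECH and 170 ± 8.32 in HF (CPM, mean ± SD, n = 4), with log2 fold changes of -0.38 ± 0.11 and -0.15 ± 0.11. Ralgps2 and Bach2, the second a transcriptional repressor, had -0.64 ± 0.31 and -0.85 ± 0.34 in ECH, and H2-Ob, a chain of the MHC class II chaperone of B cells, had -1.35 ± 0.44. None of these 4 had an edgeR call, and DESeq2 called H2-Ob in ECH against Ct (adjusted p = 0.0476).

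Cd72 and Bank1, a co-receptor and a scaffold of B-cell receptor signalling, followed a different pattern, in which ECH 3 and ECH 4 stood apart. Cd72 measured 133, 144, 168 and 106 CPM in Ct 1 to 4, 158, 239, 57.1 and 49.8 CPM in ECH 1 to 4, and 201, 177, 237 and 267 CPM in HF 1 to 4. Bank1 measured 88.2, 100.2, 131 and 143 CPM in Ct 1 to 4, 65.4, 82.7, 18.4 and 18.5 in ECH 1 to 4, and 93.7, 88.8, 102 and 61.3 in HF 1 to 4. ECH 3 and 4 were the lowest of the 12 libraries for both genes, while the HF libraries of the same set were not low. The titles give ECH 3 and 4 a shared code, as they do Ct 1 and 2, Ct 3 and 4, and HF 1 and 2, and its meaning is not given. No code is shared between groups, so code and group cannot be told apart for any gene here. Over all libraries edgeR called neither gene in any comparison and DESeq2 called Bank1 in ECH against Ct (log2 fold change -1.33, adjusted p = 0.0324), with edgeR log2 fold changes of HF from ECH of 0.81 ± 0.40 for Cd72 and 0.90 ± 0.42 for Bank1. Within the set of HF with ECH 3 and 4 (4 and 2 libraries) both were higher in HF than in ECH, by 2.05 ± 0.19 (edgeR adjusted p = 0.00362) and 2.23 ± 0.23 (adjusted p = 0.00393) on the log2 scale. The same fit called 370 genes in all. Its 2 ECH libraries share a title code, so whether they vary independently is not known. With the set as a covariate, the log2 fold change of HF against Ct moved from 0.68 to 2.57 for Cd72 (edgeR adjusted p = 0.00406) and turned from -0.42 to 1.59 for Bank1 (adjusted p = 0.0369). Ct and HF share no set, so this estimate is indirect and rests on the difference of ECH 1 and 2 from ECH 3 and 4. The measured means in Ct and HF were 138 and 221 CPM for Cd72 and 115 and 86.6 CPM for Bank1.

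The signalling proteins below the B-cell receptor that myeloid cells also use were measured at much higher levels and without the pattern of the 7 genes. The list of 14 (Syk, Lyn, Btk, Blnk, Plcg2 and others) summed to between 3514 and 4333 CPM in every library, its median log2 fold change was -0.05 in both ECH and HF against Ct, and 5 of 14 values in ECH and 4 of 14 in HF were above 0. Cd81, a tetraspanin of leukocytes, measured 1144 ± 87.3 in Ct, 974 ± 279 in ECH and 1276 ± 103 in HF (all CPM), and Ptpn6, the phosphatase recruited by CD22, 514 ± 75.7, 454 ± 75.7 and 518 ± 41.8 CPM (SD, n = 4).

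Genes particular to the stages before and after the mature B cell differed widely in level. Of 8 genes of B-cell precursors 4 were tested, and Rag1, Rag2, Dntt and Igll1, named after their values were seen, were at 0 in most libraries, with single libraries at up to 118 counts for Rag1 and 191 counts for Dntt. Il7r, the interleukin-7 receptor that T cells also carry, went the other way from the 7 genes by group mean, with 9.18 ± 6.49 in Ct, 19.8 ± 5.37 in ECH and 29.8 ± 6.10 in HF (CPM, mean ± SD, n = 4), and did not pass the adjusted edgeR test (adjusted p = 0.258 and 0.0796). Its r with the mean standardised level of the 7 genes was -0.42 over all libraries but 0.76 relative to group means. Of 8 plasma cell genes 7 were tested, and the log2 fold change was below 0 for 5 of 7 in both ECH and HF, with no edgeR call. Mzb1 and Tnfrsf17 were among the 10 genes most like the 7, and Xbp1 and Irf4, which other leukocytes also use, summed to most of the list. Sdc1, which encodes the plasma cell surface protein CD138, and Xbp1 went the other way. Sdc1 measured 2.62 ± 2.82 in Ct, 9.26 ± 4.09 in ECH and 13.8 ± 2.41 in HF, with no count in Ct 2, and Xbp1 232 ± 38.8, 290.05 ± 50.6 and 313 ± 11.3 (CPM, mean ± SD, n = 4). Jchain, which joins secreted IgM and IgA, was at most 0.58 CPM, and Sdc1 and Jchain were named after their values were seen.

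The summed markers of T and NK cells varied with the B-cell genes, and single markers did so to differing degrees. Their 14 genes summed to between 34.2 and 149 CPM in Ct, between 11.8 and 57.9 in ECH, and between 26.9 and 51.1 in HF. The log2 fold change was below 0 for 14 of 14 in both comparisons with Ct. Its medians were -1.20 and -1.07, against 0.01 and -0.01 over all genes tested. An unadjusted edgeR p under 0.05 in that direction was found for 7 and 3 of them, where 5.89% and 8.72% of all genes tested had one. The lowest edgeR adjusted p were 0.236 and 0.151. Singly, r with the mean standardised level of the 7 genes ran from 0.32 for Thy1 to 0.91 for Cd247. Summed by library, the 14 genes followed the 7 genes with r = 0.889 and rho = 0.874 over 12 libraries, with r = 0.841 relative to group means, and with r = 0.943 and 0.722 within the library sets of Ct and of HF. Without Ct 2 and HF 1, r was 0.831 and rho 0.903, the sums were 34.2 to 89.7 CPM in Ct, and 14 and 12 of the 14 values were below 0. Nkg7, a gene of cytotoxic cells, measured 12.04 ± 8.53 in Ct, 4.18 ± 4.32 in ECH and 4.16 ± 2.07 in HF (all CPM), and Cd2 16.2 ± 9.06, 8.20 ± 3.23 and 13.1 ± 4.65 CPM (SD, n = 4). The defining T-cell gene Cd3e was above 0 in every library, between 0.449 and 8.82 CPM. The part of these cells in the levels of the 7 genes was not tested.

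**Figure D5:**
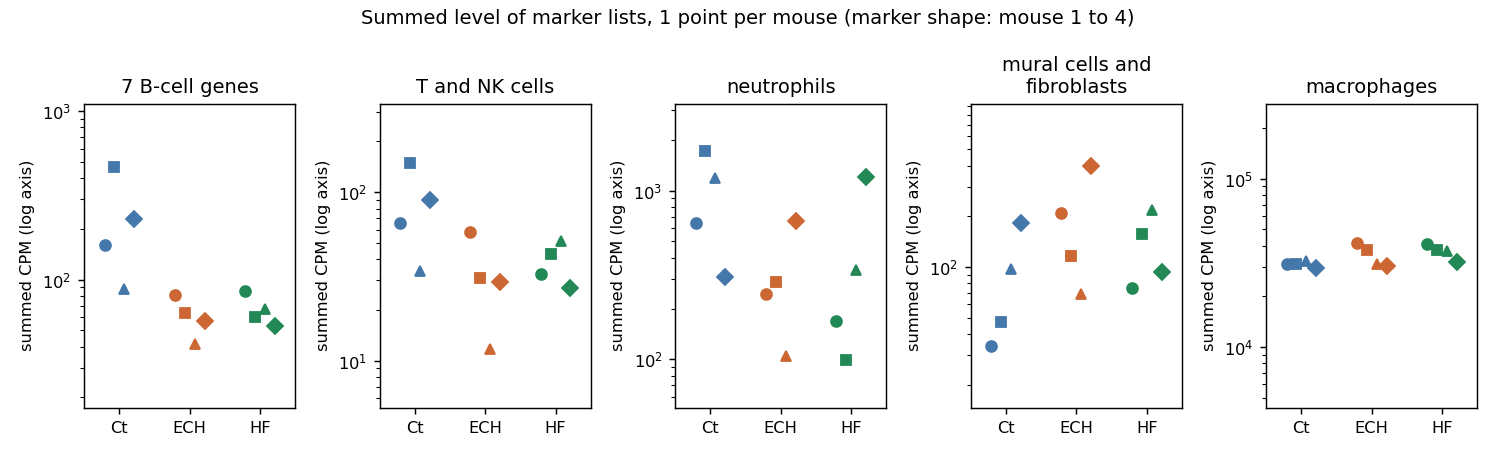
Summed CPM of the 7 B-cell genes and of 4 marker lists in each mouse, on log axes that each span the same ratio. The B-cell and the T and NK cell sums are highest in Ct 2 and lowest in ECH 3. The Mφ sum lies between 29287 and 41450 CPM, with Lyz2 as its largest gene (mean 16439 CPM). Some single Mφ genes vary more than this sum, such as Mertk with 76.0 to 496 CPM.

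The remaining lists gave a mixed pattern. Neutrophil genes were lower for 9 of 10 in ECH and 10 of 10 in HF by fitted log2 fold change, with a sum of 309 to 1712 CPM in Ct, 104 to 665 in ECH and 98.7 to 1209 in HF and r = 0.473 with the 7 genes. An unadjusted edgeR p under 0.05 in that direction was found for 3 and 4 of them. Plasmacytoid dendritic cell genes (5 tested) were below 0 for 5 in ECH and 4 in HF, conventional dendritic cell genes (8 tested) for 4 and 4, cardiomyocyte genes (10 tested) for 9 and 9, endothelial genes (8 tested) for 3 and 4, genes of mural cells and fibroblasts (11 tested) for 3 and 4, genes of red cells and platelets (4 tested) for 0 and 0, and Mφ genes (10 tested) for 2 and 3. By library, the sums of plasmacytoid dendritic cell, conventional dendritic cell and cardiomyocyte genes had r = 0.592, 0.618 and 0.603 with the 7 genes, and 0.51, 0.443 and 0.278 without Ct 2 and HF 1, where neutrophil genes had 0.22. Ccr7, a chemokine receptor of the conventional dendritic cell list that lymphocytes also carry, named after its values were seen, was at place 23 of the 14601 genes ranked for likeness (r = 0.917), with 104 ± 49.2 in Ct, 31.03 ± 14.1 in ECH and 36.6 ± 9.08 in HF (CPM, mean ± SD, n = 4). Elsewhere in that list, Xcr1 and Itgae had r of 0.67 and 0.29, and Clec9a, Cd209a, Kmo, Flt3 and Zbtb46 between -0.16 and -0.65. Tcf4, at a mean of 198 CPM most of the plasmacytoid dendritic cell sum, had r = 0.27. The other genes tested of the latter list had r between 0.15 for Ccr9 and 0.77 for Pacsin1. These genes were also named after their values were seen. The part of these cells in the levels of the 7 genes was not tested. No gene of these 12 lists, 105 tested in all, was called by edgeR in any comparison. An unadjusted p under 0.05 was found for 25 in ECH against Ct, 32 in HF against Ct and 11 in HF against ECH, of the 105, where 11.9%, 16.1% and 7.98% of all genes tested had one. DESeq2 called 10, 12 and 4. Over all genes tested it called 248 and 336 in the comparisons with Ct, and the number given above in HF against ECH.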

How the data were processed

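RNA of CD14+/CD64+ cells sorted from the hearts of 12 mice was sequenced, as 4 libraries per group (Ct, ECH, HF), grouped by their labels. The authors amplified cDNA with SMART-Seq v4, trimmed reads with Trimmomatic, aligned them to mm10 with TopHat2 and counted them on genes with featureCounts, and the values deposited by the authors are raw counts for each gene symbol. No source used here gives the tool versions, the annotation or the strand setting, so reads of overlapping antisense genes may be included. Where low counts were seen, genes with exactly 2 counts outnumbered those with 1 in every library, so counts may not be independent fragments.

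The 7 genes, the gene lists and the rules were chosen with earlier results of these data known. A B-cell gene of the list is not reported here and was left out of its counts. The analysis used edgeR 4.0.16 (R 4.3.3), with filterByExpr by group (14608 genes kept), TMM scaling and 1 quasi-likelihood fit over all 12 libraries, and the Benjamini-Hochberg adjustment covered every gene kept. A call required an FDR below 0.05 and a fold of 2 or more. Correlations and likeness used log2(CPM + 0.1), and the likeness target was the mean of the standardised levels of the 7 genes. Outside the 7 genes, the text names called B-cell genes, the 8 B-cell genes of highest mean level, the 10 genes most like the 7, and of the other lists the 2 genes of highest level where the list is described, with exceptions stated where they occur. Alternatives were RLE scaling, no low-count filter, DESeq2 1.42.0, the replicate number as a block, the library set as a covariate, only the groups compared, the same library set only, each library left out, a pseudocount of 1 CPM, and, chosen after seeing the data, the fit and the correlations without Ct 2 and HF 1. The replicates are separate mice. The code was tested on simulated data. Gene positions and transcript lengths were taken from GENCODE M21 (GRCm38), promoter sequences from RefSeq, and figures were drawn in matplotlib 3.10.9.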

Additional observations from a re-analysis of the deposited data

Results flagged for a closer look

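In 33 sets of 4 mice (the 7 genes, Fcmr and the summed lists of the 7 genes, other B-cell genes and T and NK cells, in each group), 3 sets held a mouse whose distance to its nearest neighbour took up more of the whole range than Dixon's critical value for 4 samples allows, where chance alone would mark about 1 set in 20. All 3 were in HF. Pax5 measured 0.261 CPM in HF 3, against at most 4 counts in the other HF mice (gap over range 0.863). Ly6d measured 7.88 CPM in HF 1, against 4.79 to 4.96 CPM in the others (0.946). Fcmr measured 13.3 CPM in HF 1, against 5.30 to 6.09 CPM in the others (0.901). HF 1 was the library with the fewest genes detected, 13600, and its part in the values of Ly6d and Fcmr was not tested.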

How the results depend on the processing

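The number of other B-cell genes called, 1 in ECH against Ct, was 8 with DESeq2, 0 with the library set as a covariate, 0 with only the groups compared in the fit, 0 with the same library set only, and 0 to 2 when each library was left out. In HF against Ct, also 1, it was 6 with DESeq2, 2 with the set as a covariate (Cd72 and Bank1, both higher), 0 with only the groups compared, and 0 to 1 when each library was left out. In HF against ECH it was 2 with the set as a covariate and 2 within the same set, in both cases Cd72 and Bank1. Over all genes, the 52 calls of ECH against Ct became 248 with DESeq2, 22 with the replicate block, 22 with the set as a covariate, 8 with only the groups compared, 1 with the same set only and 11 to 95 when each library was left out. The 55 calls of HF against Ct became 336 with DESeq2, 18 with the replicate block, 208 with the set as a covariate and 15 to 103 when each library was left out. The 0 calls of HF against ECH became 47 with DESeq2, 272 with the set as a covariate and 370 with the same set only. The causes of these differences were not tested. The replicate numbers of the groups give no pairing, since the correlations of the deviations of same-numbered libraries lay between -0.076 and 0.083. The log2 fold change of Cd72 in ECH against Ct, -0.13, was 0.53 with the set as a covariate, 0.52 within the set, and between -0.64 and 0.14 when each library was left out, its sign turning without ECH 3 or ECH 4. In HF against Ct, with the set as a covariate, Bank1 was 1.59, Fcer2a 0.19, Cd37 0.058 and Ralgps2 0.094 in place of values below 0, and Cd72 was 2.57 (edgeR adjusted p = 0.00406). The median correlation of the 21 pairs was 0.413 without Ct 2 and Ct 4, and 0.644 without Ct 2 and HF 1. HF against Ct has no value within a library set, and with the set as a covariate it is linked only through the ECH mice. Pax5 had at most 65 counts in any library, so its values carry the largest relative counting error of the 7 genes.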
